A study of Homo sapiens with 6 samples.

Results

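SLC7A11, GCLM, PSAT1 and ASNS were taken by name from a table of 453 features, 452 genes and 1 ERCC spike-in RNA, selected on the authors' unadjusted p under 0.05 between GDF15-treated and untreated LX2 cells, which 100% of the listed features have. The 4 genes were chosen by this p and by their lower values with GDF15. The 4 genes supply cystine, glutathione, serine and asparagine. LX2 cells are an established line derived from human hepatic stellate cells, which store vitamin A and, once activated, lay down scar matrix in the liver. RNA was measured in 3 libraries of cells given recombinant GDF15, a secreted stress-induced cytokine, at 1 ug/ml for 24 h, and in 3 libraries of untreated cells of the same line. The labels give no separate cultures, so the spread between libraries may be technical, and all 6 libraries come from this single line. The design text calls the cells hepatic stellate cells and the labelled cell type is epithelial. None of 34 marker genes of stellate, epithelial, hepatocyte, endothelial and macrophage cells was among the listed features, so these values check neither name.

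Background on these genes comes from earlier work in many cell types. SLC7A11 is the transport subunit of system xc-, which takes up cystine in exchange for glutamate. Cystine is reduced to cysteine, which limits glutathione synthesis, and GCLM is the modifier subunit of glutamate-cysteine ligase, the enzyme of the first step. PSAT1 is the aminotransferase of the phosphorylated pathway that makes serine from a glycolytic intermediate, and ASNS makes asparagine from aspartate with glutamine as nitrogen donor. ATF4, the transcription factor of the integrated stress response, is known to induce SLC7A11, PSAT1 and ASNS when amino acids are short. NRF2, the factor of the oxidative stress response, is known to induce SLC7A11 and GCLM. Neither the ATF4 nor the NRF2 gene (NFE2L2) was among the listed features.

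Because these known controls act at promoters, the starts of 3 of the 4 genes, GCLM, ASNS and PSAT1, are shown. No promoter window was available for SLC7A11, so it was not searched. The shared lower direction of the 4 genes is how they were chosen and says nothing on shared control. RefSeq promoter windows on GRCh38.p14, from 250 bases before to 50 bases after a gene's start, were searched on both strands. The motifs were TGACNNNGC for the antioxidant response element that NRF2 binds, TGATGNAA for the C/EBP-ATF response element that ATF4 binds, and GTTACA for the second nutrient-sensing element described in the ASNS promoter. None of the 3 contains another. GCLM lies on chr1:93909381-93909680 (minus strand), PSAT1 on chr9:78296875-78297174 (plus strand) and the ASNS start shown on chr7:97872359-97872658 (minus strand). Each is written 5′ to 3′ on the gene's strand, with motif matches in capitals.
GCLM: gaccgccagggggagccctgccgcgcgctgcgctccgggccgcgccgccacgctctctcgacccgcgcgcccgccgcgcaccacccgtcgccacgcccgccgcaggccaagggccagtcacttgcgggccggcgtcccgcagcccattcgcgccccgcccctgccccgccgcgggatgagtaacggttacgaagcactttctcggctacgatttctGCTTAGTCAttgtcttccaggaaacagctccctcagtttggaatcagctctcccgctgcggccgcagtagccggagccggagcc
ASNS: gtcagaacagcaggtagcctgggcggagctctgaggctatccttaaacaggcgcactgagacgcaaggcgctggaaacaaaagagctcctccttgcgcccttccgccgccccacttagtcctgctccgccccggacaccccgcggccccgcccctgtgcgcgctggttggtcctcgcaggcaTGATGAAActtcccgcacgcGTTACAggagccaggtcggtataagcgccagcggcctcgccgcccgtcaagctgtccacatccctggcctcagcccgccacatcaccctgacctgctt
PSAT1: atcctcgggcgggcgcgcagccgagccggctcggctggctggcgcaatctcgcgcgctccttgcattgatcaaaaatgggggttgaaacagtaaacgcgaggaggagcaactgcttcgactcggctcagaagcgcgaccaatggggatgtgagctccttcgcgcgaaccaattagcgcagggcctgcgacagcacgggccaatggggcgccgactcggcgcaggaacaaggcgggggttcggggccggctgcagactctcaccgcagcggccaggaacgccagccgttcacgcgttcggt
The GCLM window held 1 match, GCTTAGTCA, which is the reverse complement of the antioxidant response element and lies 34 to 26 bases before the start. The ASNS window held TGATGAAA at 68 to 61 bases and GTTACA at 48 to 43 bases before the start, and the window at another ASNS start held no match. For ASNS and GCLM the GENCODE gene bounds given below reach further upstream than these RefSeq starts. They end at 97872542 for ASNS, so both ASNS matches lie inside them. For GCLM they end at 93909456, where they touch the match. The PSAT1 window held none, which says only that these letters are not in this window. Of 35116 promoter windows in the RefSeq table, 13.3% held the antioxidant response element, 3.62% the C/EBP-ATF response element and 6.66% the second nutrient-sensing element. A match is a description of sequence and not a measured binding site.

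All 4 genes were lower with GDF15 by their means on the authors' scaling, a direction that turned for all 4 when values were divided by the listed ERCC spike-in RNA, described further on. The members were chosen for this contrast, so the differences are a description and were not tested, and fewer expressing cells cannot be told apart from less RNA per cell. Lower values with GDF15 were listed for 179 features, 39.5% of the table. In the authors' deposited table the unadjusted p was 0.000356 for SLC7A11, 0.0126 for PSAT1, 0.0173 for GCLM and 0.0377 for ASNS. The adjusted p in the authors' deposited table was 0.911 for each, and 0% of its features were under 0.05 after adjustment. Features with a larger unadjusted p than 0.05 were not analysed here. Values below are normalized counts, read counts that the authors scaled per library, as mean ± SD over 3 libraries.

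**Figure D1:**
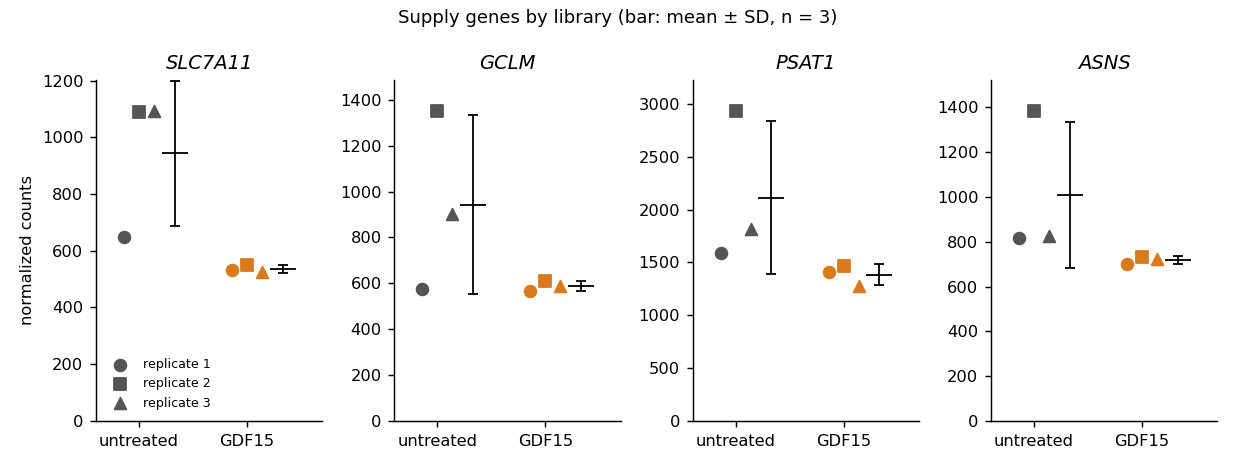
Normalized counts of the 4 genes (y axis, from 0) in the 3 untreated (grey) and 3 GDF15 libraries (orange), with marker shapes for the replicate number and bars for mean ± SD (n = 3). The GDF15 libraries lie close together, whereas untreated replicate 2 is the highest point for GCLM, PSAT1 and ASNS and untreated replicates 2 and 3 are both high for SLC7A11.

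SLC7A11 (ENSG00000151012), the cystine importer, lies on the minus strand of GRCh38 chromosome 4 from 138164097 to 138242349. Its normalized counts were 533, 551 and 524 in GDF15 replicates 1, 2 and 3. Untreated replicates 1, 2 and 3 had 648, 1088 and 1093. The groups did not overlap, with untreated replicate 1 well under the other untreated libraries and 1.18 times the highest GDF15 library. The means were 536 ± 13.4 with GDF15 and 943 ± 256 without, 1.76-fold higher in untreated cells, a log2 ratio of -0.82. SLC7A11 was the only one of the 4 whose untreated replicates 2 and 3 were nearly equal, and replicate 3 was 1.69 times replicate 1. Its log2 ratio was the 34th lowest of the 179 lower features, and the other 3 genes ranked 57th (GCLM), 81st (PSAT1) and 125th (ASNS).

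GCLM (ENSG00000023909), the glutathione synthesis gene, lies on chromosome 1 from 93885205 to 93909456, minus strand. GDF15 replicates 1, 2 and 3 held 566, 609 and 590 normalized counts of it, against 573, 1352 and 904 in untreated replicates 1, 2 and 3. Untreated replicate 1 lay inside the range of the GDF15 libraries, and the other untreated libraries lay above it. GCLM was thus the only one of the 4 whose groups overlapped, with 7 of 9 untreated-to-GDF15 library pairs higher in the untreated library. The means were 588 ± 21.6 and 943 ± 391, a 1.60-fold difference and a log2 ratio of -0.68. Between the same-numbered libraries the untreated value was 1.01, 2.22 and 1.53 times the GDF15 value.

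PSAT1 (ENSG00000135069), the serine synthesis gene, lies on chromosome 9 from 78297143 to 78330093, plus strand. The GDF15 libraries held 1412, 1466 and 1277 normalized counts and the untreated libraries 1588, 2936 and 1816, in the order of replicates 1, 2 and 3. Untreated replicate 2 stood far above the rest, and untreated replicate 1 was 1.08 times the highest GDF15 library, so the groups did not overlap but came close. The means were 1385 ± 97.5 and 2114 ± 721, a 1.53-fold difference and a log2 ratio of -0.61. GENCODE release 29 names 4 PSAT1 pseudogenes, none of them a listed feature, and reads shared with them cannot be told apart here.

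ASNS (ENSG00000070669), the asparagine synthetase gene, lies on chromosome 7 from 97852118 to 97872542, minus strand. GDF15-treated cells had 701, 734 and 723 normalized counts in replicates 1, 2 and 3. Untreated cells had 816, 1385 and 827 in the same order. Untreated replicates 1 and 3 nearly coincided just above the GDF15 libraries, and replicate 2 was 1.69 times their mean. The means were 719 ± 16.4 and 1009.6 ± 326, a 1.40-fold difference and a log2 ratio of -0.49, without overlap. ASNS shares its locus with 2 other annotated genes and 4 pseudogenes carry its name, and SLC7A11 overlaps the antisense gene SLC7A11-AS1. None of these is a listed feature, and with strand not stated their reads could be counted in or lost from these genes.

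Across the 4 genes, the groups did not overlap for 3, where 77.1% of the 179 lower features, or 30.5% of the whole table, were lower without overlap. Untreated replicate 2 was the highest library for 3 of the 4, and for 86.0% of the lower features. Both counts lie near those of the lower features in general. Untreated replicate 3 was the highest library for SLC7A11 and for 14 of the 179 lower features.

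Within a group, the genes differed in how closely the libraries lay together. The coefficient of variation (CV, SD as a percentage of the mean) over the GDF15 libraries was 2.28% for ASNS, 2.4999% for SLC7A11, 3.67% for GCLM and 7.04% for PSAT1. Over the untreated libraries it was 27.1% for SLC7A11, 32.2% for ASNS, 34.1% for PSAT1 and 41.4% for GCLM. The CV was larger over the untreated than over the GDF15 libraries for all 4, as it was for 83.8% of the lower features. Over the lower features the median CV was 10.1% over GDF15 and 26.1% over untreated libraries. Among the 209 listed features of either direction with a mean of at least 300 normalized counts, these medians were 12.4% and 21.9%. In that set of 209, ASNS had the 12th and SLC7A11 the 15th smallest CV over the GDF15 libraries, GCLM the 29th and PSAT1 the 74th. Counted from the largest CV over the untreated libraries, GCLM was 26th, PSAT1 47th, ASNS 52nd and SLC7A11 76th.

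**Figure D2:**
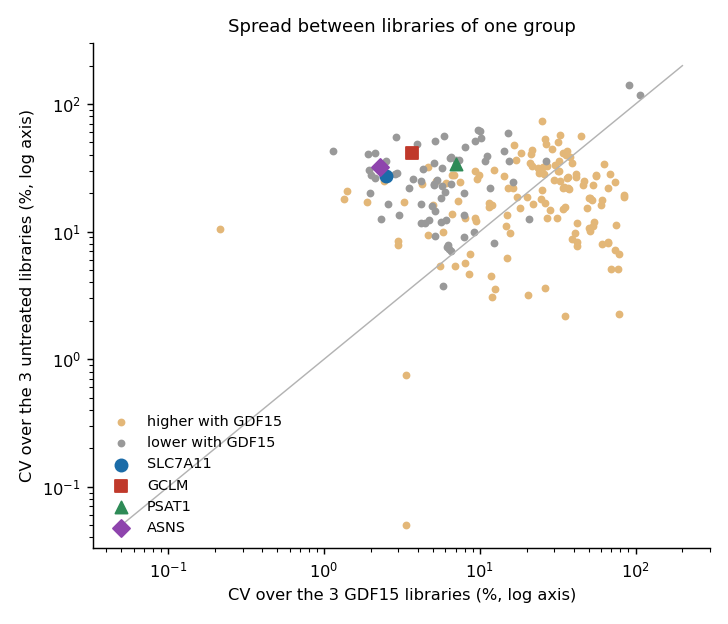
CV over the 3 GDF15 libraries (x axis, percent) and over the 3 untreated libraries (y axis, percent), both on log axes, for the 209 listed features with a mean of at least 300 normalized counts, with the line of equal spread. The 4 named genes lie above the line, with CVs of 2.28% to 7.04% on the x axis and 27.1% to 41.4% on the y axis, among many other lower features (grey).

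In each library every deposited value was a whole multiple of a single step, which would make a step the worth of 1 read. This was not established, since a check of the low values did not accept them as recovered reads, and no test uses it. If it holds, the 4 genes rested on 473 to 3098 reads per library, for which counting error alone gives a CV of 1.80% to 4.60%. The spread of the GDF15 libraries was below the counting CV for SLC7A11 (4.51%), ASNS (3.89%) and GCLM (4.30%) and above it for PSAT1 (2.81%). The untreated spread was far above counting error for each. A step was worth 1.03, 1.12 and 1.11 normalized counts with GDF15 and 1.04, 0.948 and 0.792 without, in the order of the replicates. A smaller step means a library scaled down more, and untreated replicates 2 and 3, where all 4 genes were highest, had the smallest steps. The part of this scaling in the differences was not tested.

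A ratio of 2 genes within a library does not depend on that scaling. Of the 6 ratios among the 4 genes, 1 had groups that did not overlap, SLC7A11 over ASNS. It was 0.760, 0.750 and 0.725 in GDF15 replicates 1, 2 and 3 and 0.794, 0.785 and 1.32 in untreated replicates 1, 2 and 3. Only untreated replicate 3 stood apart, and the other untreated libraries lay just above the GDF15 range. The ratio PSAT1 over ASNS was the steadiest, from 1.77 to 2.20 over all 6 libraries, a range of 1.24 times, with overlapping groups. SLC7A11 over GCLM ran from 0.804 in untreated replicate 2 to 1.21 in untreated replicate 3, with the GDF15 libraries between them at 0.889 to 0.941. The other ratios had overlapping groups, and no share over other pairs of listed features was computed. Whether the genes changed unequally was not tested, and the ratios do not say which gene moved.

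The log2 ratios depended on which untreated library was left out. Without untreated replicate 2 the log2 ratio went from -0.82 to -0.70 for SLC7A11, from -0.68 to -0.33 for GCLM, from -0.61 to -0.30 for PSAT1 and from -0.49 to -0.19 for ASNS. SLC7A11 kept 85.9% of its log2 ratio, against 48.3% for GCLM, 48.8% for PSAT1, 39.3% for ASNS and a median of 62.2% over the 179 lower features. The remaining differences were 1.63-fold for SLC7A11, 1.26-fold for GCLM, 1.23-fold for PSAT1 and 1.14-fold for ASNS. By this value SLC7A11 was the 24th lowest of the lower features and ASNS the 161st. Dropping GDF15 replicate 1 as well, which was decided after the values were known, the log2 ratios were -0.70 for SLC7A11, -0.30 for GCLM, -0.31 for PSAT1 and -0.17 for ASNS. Leaving out untreated replicate 1, the lowest untreated library for each gene, gave -1.03, -0.94, -0.78 and -0.62 in the same order. Without untreated replicate 3, the other high library of SLC7A11, the log2 ratios were -0.70 for SLC7A11, -0.71 for GCLM, -0.71 for PSAT1 and -0.61 for ASNS, so SLC7A11 did not stand apart there.

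**Figure D3:**
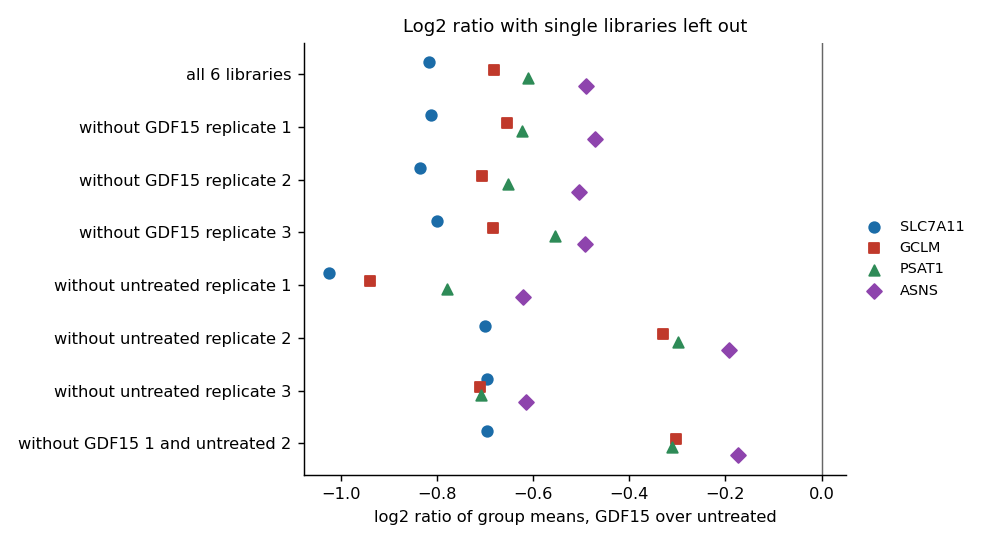
Log2 ratio of group means, GDF15 over untreated, on the authors' scaling (x axis) for the 4 genes with all 6 libraries, with each library left out and with 2 libraries left out. Without untreated replicate 2, GCLM, PSAT1 and ASNS lie at -0.33, -0.30 and -0.19 while SLC7A11 lies at -0.70, and division by the listed ERCC spike-in RNA, not drawn, turned the sign for all 4.

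**Figure D4:**
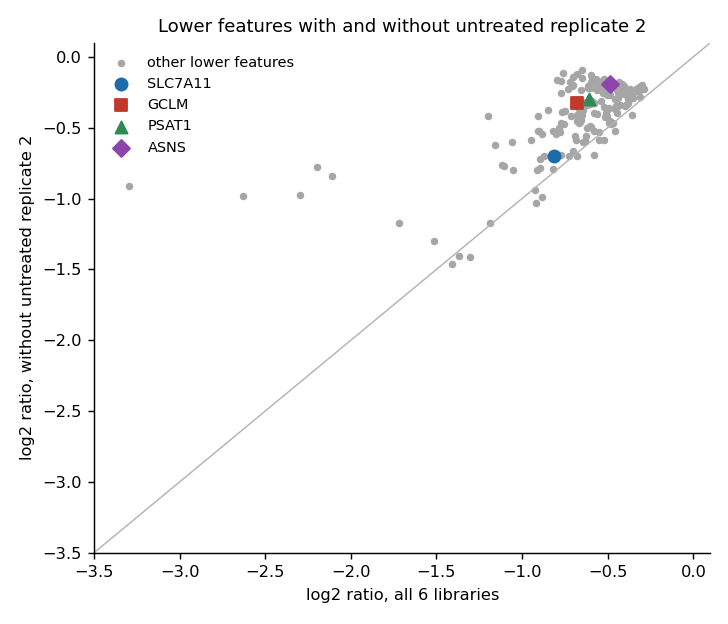
Log2 ratio of group means with all 6 libraries (x axis) and without untreated replicate 2 (y axis) for the 179 lower features on the authors' scaling, with the line of equality. SLC7A11 lies near the line at -0.82 and -0.70, and GCLM, PSAT1 and ASNS lie above it within the bulk of the lower features (their sign turned on division by the listed ERCC spike-in RNA).

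The listed spike-in, ERCC-00157, is a synthetic RNA added to the total RNA and not a product of the cells. Its level was 19.7, 18.0 and 13.3 normalized counts with GDF15 and 29.03, 38.9 and 26.9 without, in the order of the replicates. It was thus higher in each untreated library than in any GDF15 library, and untreated replicate 2 was again the highest. Its log2 ratio of means was -0.90, beyond that of SLC7A11. Dividing by it in each library, a choice made after seeing the data, gave log2 ratios of 0.10 for SLC7A11, 0.28 for GCLM, 0.33 for PSAT1 and 0.47 for ASNS. This is a single, low RNA that was listed for its difference, and dividing by it moved the median log2 ratio of all listed features by 0.87. The other spike-in RNAs were not analysed here, and the part of this difference in the 4 genes was not tested.

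Levels between genes were compared per kb of merged exons in GENCODE release 29. With GDF15, PSAT1 had 633 ± 44.6, ASNS 161 ± 3.68, GCLM 109 ± 3.98 and SLC7A11 55.6 ± 1.39 normalized counts per kb. Without GDF15 the levels were 966 ± 330 for PSAT1, 227 ± 73.1 for ASNS, 174 ± 72.1 for GCLM and 97.8 ± 26.5 for SLC7A11. The order was the same in 6 of 6 libraries. In the untreated group the mean ± SD ranges of ASNS and GCLM, and of GCLM and SLC7A11, overlapped, although the order held within each library. Merged lengths of 9.645 kb for SLC7A11 and 2.188 kb for PSAT1 include exons of all annotated isoforms, so these levels are low estimates where the cells use a shorter isoform.

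Listed genes of the same pathways were counted in 7 lists. Of 20 cystine and glutathione genes 2 were listed, SLC7A11 and GCLM, both lower, and of 32 NRF2 targets and regulators the same 2. Of 19 serine, glycine and folate-carbon genes PSAT1 was listed, so PHGDH and PSPH, the other enzymes of serine synthesis, were not. ASNS alone was listed of 16 asparagine, glutamine and proline genes. None of 20 cytosolic aminoacyl-tRNA synthetase genes, many of them known ATF4 targets, was listed. Over all 7 lists, 8 of 143 genes were listed, 5 lower and 3 higher, and the unlisted genes were not analysed here. Of the 5 lower, 4 are the genes chosen here for being lower, and 39.5% of all listed features were lower. The share of all measured genes that was listed is unknown, so whether these lists hold few or many listed genes cannot be said.

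Of 17 amino acid transporters, SLC16A10 was listed besides SLC7A11. SLC16A10 is a transporter of aromatic amino acids. With GDF15 its level was 42.4, 59.5 and 60.96 normalized counts in replicates 1, 2 and 3, and without GDF15 it was 77.8, 87.2 and 78.4, without overlap. Its untreated libraries lay close together and its GDF15 libraries spread, the reverse of SLC7A11, and the means differed 1.49-fold. The log2 ratio of SLC16A10 was -0.58, against a median of -0.59 over all lower features.

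The ATF4 and integrated stress response list held listed genes of both directions. Of 34 genes 6 were listed, SLC7A11, PSAT1 and ASNS lower and DDIT4, VEGFA and GDF15 higher. The median log2 ratio of the 6 was 0.14, against 0.47 over all listed features, but the 3 lower genes were chosen as lower. DDIT4, an inhibitor of mTORC1 signalling, stood at 2403, 1635 and 1397 normalized counts with GDF15 and at 1466, 753 and 697 without, in the order of the replicates. Its highest untreated library was replicate 1, the lowest untreated library for all 4 supply genes. VEGFA, the endothelial growth factor gene, was also highest in that untreated library, with 809 in replicate 1 against 408 and 410 in replicates 2 and 3. With GDF15, VEGFA stood at 1315, 748 and 719, so replicates 2 and 3 lay under untreated replicate 1. The cells' own GDF15 transcript stood at 94.1, 50.6 and 18.8 with GDF15 and at 27.0, 23.7 and 26.9 without, in the order of the replicates. It was thus higher by its mean only, with GDF15 replicate 3 below each untreated library. DDIT4, VEGFA and GDF15 had overlapping groups.

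The listed genes with the most similar profiles came from outside these pathways. Likeness was measured as the root mean square difference of log2(normalized count + 1), centred on each gene's mean, over 6 libraries, among 413 listed genes with a mean of at least 20. The 3 nearest genes were BLOC1S2, NDC80 and UBLCP1 for ASNS, at 0.041 to 0.055 log2 units, and FBXO4, SMIM19 and C1orf131 for PSAT1, at 0.063 to 0.071. For GCLM they were CBWD5, DSCC1 and BEX1, at 0.12 to 0.14, and for SLC7A11 LNP1, DSCC1 and SHISA2, at 0.13 to 0.14. NDC80 is a kinetochore protein gene, DSCC1 acts in sister chromatid cohesion, FBXO4 is a ubiquitin ligase adaptor and BLOC1S2 belongs to a complex of lysosome-related organelle formation. None of these 11 genes was on a pathway list. Those lists held only 4 other listed genes, 3 of them higher with GDF15, so this outcome was close to fixed in advance. The median difference over candidates was 0.60 for ASNS and 0.73 for SLC7A11.

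**Figure D5:**
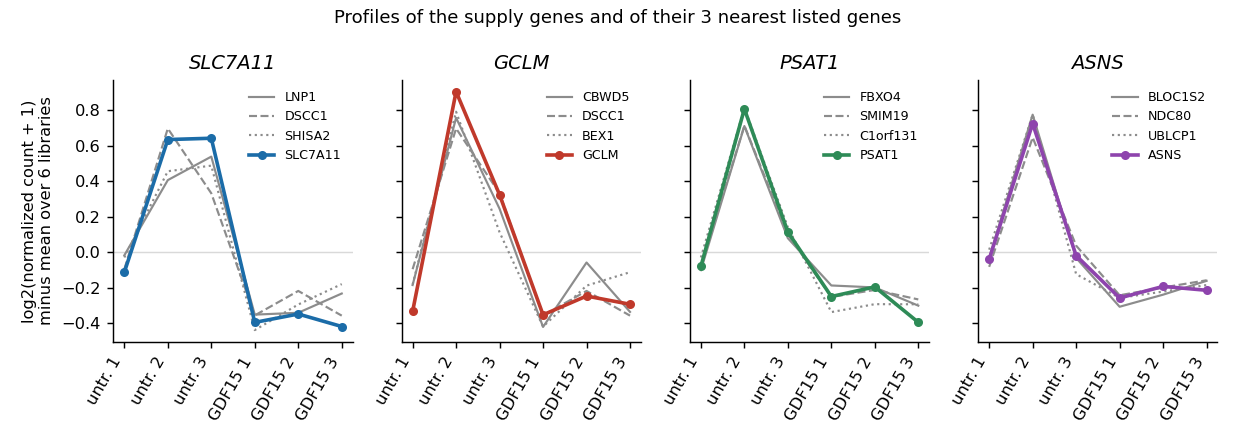
Log2(normalized count + 1) minus the gene's mean over 6 libraries (y axis) in the 3 untreated (untr.) and 3 GDF15 libraries (x axis) for each of the 4 genes (coloured) and its 3 nearest listed genes (grey). GCLM, PSAT1 and ASNS peak in untreated replicate 2, and SLC7A11 has a plateau over untreated replicates 2 and 3.

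Nearness among the 4 genes themselves was moderate. PSAT1 and ASNS were closest, 0.099 log2 units apart, yet 8 other listed features were closer to PSAT1 and 27 were closer to ASNS. GCLM and PSAT1 were 0.15 apart, and SLC7A11 and ASNS, 0.30 apart, were the least alike, with 76 listed features closer to SLC7A11 than ASNS was. The genes were listed for the same difference and share libraries and scaling, so these distances describe the libraries and were not tested. Without untreated replicate 2, 1 of the 3 nearest genes remained for SLC7A11, 1 for GCLM, 1 for PSAT1 and 0 for ASNS.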

How the data were processed

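Poly(A) RNA of 6 LX2 libraries was sequenced, 3 per group. The submitters' processing notes name GRCh38 and the tools DESeq2, STAR 2.5.2b, Trimmomatic 0.36, Subread 1.5.2 and featureCounts. Settings, annotation and use of strand were not given in the sources used here. The authors deposited a table with their log2 fold change, p-value columns and a normalized signal per library, called normalized counts here. Every row has an unadjusted p under 0.05, so full depth is unknown and adjusted p-values could not be recomputed. In each library 100% of values were whole multiples of a step, within 0.001 of a step. Column names equal the library names in the labels for 6 libraries, which leaves 0 columns unmapped.

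Means, SDs and log2 ratios of means were computed with Python 3.11.15, pandas 2.3.3 and numpy 2.4.6. Log2 ratios use no pseudocount. Log2(normalized count + 1) was fitted with limma 3.58.1 (R 4.3.3) over the 453 features, checked on simulated data, and serves as background only. The planned count tests were not run, since the values are deposited as normalized and a check of their low values did not accept them as recovered reads. An exact permutation test of 3 against 3 libraries cannot go below p = 0.10. Genes named were the 4 members, all listed genes of 7 pathway lists and the 3 nearest profiles per member. Members and lists were chosen with earlier results of these data known. Alternatives were other pseudocounts, a minimum mean of 10, scalings, medians, a replicate block and leaving out libraries.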

Additional observations from a re-analysis of the deposited data

How the results depend on the processing

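The log2 ratios of SLC7A11, GCLM, PSAT1 and ASNS stayed below 0 under 11 of 12 alternatives each, all but division by the spike-in. For SLC7A11, PSAT1 and ASNS the groups did not overlap, so alternatives without rescaling could not have turned the sign. The sum over listed features was larger in each GDF15 library than in any untreated library. Scaling by that sum could therefore only lower their ratios, and for these genes only division by the spike-in could have turned the sign. The replicate block and the difference of mean log2 values, both among these alternatives, gave the same number for each gene. With single libraries left out they ran from -1.03 to -0.70 for SLC7A11, -0.94 to -0.33 for GCLM, -0.78 to -0.30 for PSAT1 and -0.62 to -0.19 for ASNS. With GDF15 replicate 1 and untreated replicate 2 both left out, ASNS moved to -0.17, with fewer libraries. Division by the listed ERCC spike-in RNA reversed them to 0.10, 0.28, 0.33 and 0.47, because that RNA itself was lower with GDF15. Scaling by the sum over listed features shifted the median log2 ratio of all listed features by -0.29 and gave -1.10, -0.95, -0.89 and -0.75. Medians in place of means gave -1.03 for SLC7A11, -0.62 for GCLM, -0.36 for PSAT1 and -0.20 for ASNS. The untreated median was the value of replicate 3 for GCLM, PSAT1 and ASNS and of replicate 2 for SLC7A11. The cause of the high untreated values was not tested.

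Limma gave 104 higher and 55 lower features at an unadjusted p under 0.05, 12.1% of the table for lower ones. With single libraries left out these counts ran from 55 to 126 and from 24 to 66. Counts of features without overlap were 169 higher and 138 lower, and 169 to 250 and 138 to 165 over the alternatives. Leaving out a library can only keep or raise such a count. Whether same-numbered libraries share a culture or batch is not stated and was not tested. Deviations of same-numbered libraries correlated at 0.11, 0.22 and -0.05. Libraries numbered 1 and those numbered 2 correlated best with each other, and libraries numbered 3 did not. With the replicate number as a block, limma called 161 higher and 68 lower features, and the mean log2 difference was -0.78, -0.60, -0.56 and -0.44 for the 4 genes. A minimum mean of 10 changed no list count. The count tests with recovered reads were not run. Full depth is unknown, which limits statements on unlisted genes.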

Other observations

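The motif search was extended to all listed features whose name is in the RefSeq promoter table, as a description. The antioxidant response element was found at a start of 21 of 123 lower and 37 of 184 higher genes, 17.1% and 20.1%, against 16.1% of the genes in the table. The C/EBP-ATF response element was found for 6 of the lower and 5 of the higher genes, 4.88% and 2.72%, against 4.46% of the genes in the table. The second nutrient-sensing element was found for 7 of the lower and 11 of the higher genes, 5.69% and 5.98%, against 8.07%. No test of these shares was made. The windows of GCLM, PSAT1 and the ASNS start shown had a GC content of 71.7%, 66.0% and 65.3%, against a median of 58.7% over all windows.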
